A study of Rattus norvegicus with 6 samples.

Results

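The 10 genes described here make and load the peptides of MHC class I, the molecule with which nearly every cell shows fragments of its own proteins to T cells. They were chosen by gene symbol, with earlier results of these data known. They are the light chain B2m, the heavy chains RT1-A2 and RT1-CE5, the peptide transporter subunits Tap1 and Tap2, the loading factor Tapbp, the immunoproteasome subunits Psmb8, Psmb9 and Psmb10, and the transcription factor Irf1. All 10 were found among the 17051 genes measured, and all 10 passed the filter on low counts, which asks for 1 rat or more with a count of 30 or above and kept 11553 genes. Kidney RNA of 6 male Sprague Dawley rats, an outbred stock, was sequenced after poly(A) selection, with each rat as a library of its own. The AL group (rats 61, 71 and 88, the "normal diet" of the labels) received standard laboratory chow ad libitum. The HD group (rats 64, 67 and 69, the "hyperammonemic diet" of the labels) received chow with an amino acid mixture modelled on the composition of haemoglobin, at 3 g per kg per day for 7 days. The comparison of both groups asked how a diet meant to raise ammonia production altered the RNA of the kidney.

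Peptides for class I come mainly from the proteasome, whose catalytic subunits Psmb5, Psmb6 and Psmb7 can be replaced by Psmb8, Psmb9 and Psmb10 to give the immunoproteasome. Tap1 and Tap2 carry the peptides into the endoplasmic reticulum, where Tapbp (tapasin) holds the empty heavy chain and B2m against the transporter until a peptide is bound. Interferon-gamma raises most of these genes, in part through Irf1, and in a resting kidney class I is found on tubule, endothelial and immune cells alike.

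Total estimated counts lay between 13221487 and 16455405 in the AL rats and between 12499945 and 30466461 in the HD rats. Every pair of libraries differed by more than sampling noise, so the 6 rats were counted as 6 samples. The summed level of 7 kidney tubule markers was 9516 to 11560 CPM in every rat (counts scaled to library size, here with TMM normalization). No gene passed an adjusted *P* of 0.05 in edgeR's quasi-likelihood test (0.0% of tested genes), while 1224 genes had an unadjusted *P* under 0.05 and DESeq2 called 182 genes. The spread behind each *P* value is that between separate rats, 3 in each group, and an exact permutation test over them cannot give a two-sided *P* below 0.1.

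Levels of the class I genes were compared per length of transcript, in TPM, which scales the counts for transcript length and library size. B2m was the most abundant in the AL group, with 926 ± 71.6 TPM (SD, *n* = 3), followed by RT1-A2 with 396 ± 93.3 and RT1-CE5 with 204 ± 20.2. The ranges of these 3 genes did not overlap in either diet group. Tapbp came next with 47.7 ± 10.0 TPM. Psmb10 (28.2 ± 4.50), Psmb9 (24.5 ± 1.53) and Psmb8 (23.1 ± 5.16) could not be put in order, because their ranges overlapped. Tap2, with 16.8 ± 3.25 TPM, overlapped with Psmb8, and the lowest pair, Irf1 (10.6 ± 2.88) and Tap1 (9.45 ± 1.37), overlapped with each other. In the HD group the same 4 genes headed the order, with B2m at 658 ± 162 TPM, RT1-A2 at 386 ± 80.0, RT1-CE5 at 144 ± 16.5 and Tapbp at 47.7 ± 3.29. Below them the ranges of Psmb10 (20.0 ± 5.01), Psmb9 (17.8 ± 2.99) and Tap2 (17.8 ± 0.393) overlapped, as did those of Psmb9 and Psmb8 (14.2 ± 2.97), while Tap2 stood above Psmb8 in every HD rat, and Tap1 (8.23 ± 0.208) stood above Irf1 (6.50 ± 1.11).

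In genome build rn5, which the files use, Psmb9, Tap1, Psmb8 and Tap2 lie side by side on chromosome 20. Psmb9 (chr20:6052972-6058393, minus strand, 6 exons) and Tap1 (chr20:6058850-6069217, plus strand, 11 exons) are read away from each other, with start sites 457 bases apart. Psmb8 (chr20:6070357-6073320, plus strand, 6 exons) and Tap2 (chr20:6075092-6089133, plus strand, 12 exons) follow. The heavy chain genes RT1-CE5 (chr20:6968846-6973135, minus strand, 8 exons) and RT1-A2 (chr20:7433459-7436984, plus strand, 8 exons) and Tapbp (chr20:7526668-7534619, minus strand, 8 exons) lie on the same chromosome. The files list Tap2 at chr20:7259226-7273268 as well, on the minus strand, and its estimated counts were split evenly between both positions, so they were summed. Away from this cluster lie B2m (chr3:120627499-120633523, plus strand, 4 exons), Irf1 (chr10:38891468-38898470, plus strand, 9 exons) and Psmb10 (chr19:48776575-48779058, minus strand, 8 exons).

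Promoter sequences, from 250 bases before to 50 after the start site, were taken from RefSeq for the newer build GRCr8, where all 10 genes matched. They were searched on both strands for the interferon-stimulated response element (ISRE; GAAA, any 2 bases, GAAA) and for the kappa B element (GGGA, any base, TTTCC), 2 elements known for interferon and inflammatory control of class I. The stretches below are shown because they hold such matches in genes with a lower mean level in the HD group (B2m, Psmb8, Psmb10) and in genes without one (Tap2, Tapbp). Tap1, with a slightly lower mean in the HD group but overlapping groups, also held matches of both elements and is not printed. They are printed along the gene's own strand, and capitals mark the matches of both elements.
B2m, chr3:129549165-129549217, plus strand: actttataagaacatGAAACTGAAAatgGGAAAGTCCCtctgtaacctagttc
Psmb8, chr20:4657011-4657050, minus strand: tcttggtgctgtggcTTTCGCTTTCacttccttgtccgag
Psmb10, chr19:50743285-50743380, minus strand: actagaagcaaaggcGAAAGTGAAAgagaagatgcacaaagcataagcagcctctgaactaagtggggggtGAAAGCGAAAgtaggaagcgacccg
Tap2, chr20:4652313-4652352, minus strand: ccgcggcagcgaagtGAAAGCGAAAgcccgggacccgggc
Tapbp, chr20:4967873-4967953, minus strand: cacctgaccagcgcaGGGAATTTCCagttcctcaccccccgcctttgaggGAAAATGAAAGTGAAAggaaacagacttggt

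The ISRE letters were found in 6 of the 10 class I genes (B2m, Tap1, Tap2, Tapbp, Psmb8 and Psmb10), against 3.92% of the 33469 promoters in the table and 0 of the 3 constitutive subunit genes. Psmb10 held 2 matches apart from each other and Tapbp 2 that overlap. The kappa B letters were found in B2m, Tap1 and Tapbp, against 0.362% of all promoters. The promoter windows of Psmb9 and Tap1 share 44 bases. A match is a run of letters and not a measured binding site.

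The promoters of Irf1 and Psmb8 held another element, the gamma-activated site (TTCNNNGAA), as did 8.87% of all promoters. The heavy chains carry paired CCAAT boxes (37.5% of all promoters had at least 1) and, in RT1-A2, the CRE core TGACG (21.2%). Neither is particular to them: CCAAT was found in 6 of the 10 class I genes and 1 of the 3 constitutive subunit genes. The CRE core was found in 3 of the 10 and 2 of the 3. In the stretches below capitals mark the gamma-activated site of Irf1 and, for the heavy chains, the CCAAT boxes and CRE cores on either strand. They are shown to set the pair of heavy chain promoters side by side, since 84.6% of 292 aligned bases were identical and only RT1-CE5 had non-overlapping diet groups.
Irf1, chr10:38417778-38417816, plus strand: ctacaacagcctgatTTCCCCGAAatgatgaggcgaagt
RT1-A2, chr20:4872748-4872845, plus strand: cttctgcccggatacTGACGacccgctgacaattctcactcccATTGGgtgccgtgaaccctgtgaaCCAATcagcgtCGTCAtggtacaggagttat
RT1-CE5, chr20:3484119-3484205, minus strand: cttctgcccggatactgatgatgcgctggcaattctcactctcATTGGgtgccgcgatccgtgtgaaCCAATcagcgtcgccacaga

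The level of 7 of the 10 class I genes was lower in the HD group than in the AL group, where 48.7% of tested genes were lower, and scaling by library size alone made it 9 by moving RT1-A2 and Tapbp just below 0. The median log2 fold change of the 10 genes (HD minus AL) was -0.40, and that of all tested genes was 0.0067. No class I gene passed the adjusted threshold in edgeR. Psmb8, RT1-CE5 and Irf1 had an unadjusted edgeR *P* under 0.05 and were lower, which is 3 of 10 against 5.94% of tested genes, and no class I gene was higher at that level, against 4.66%. In CPM, RT1-CE5, Psmb8, Psmb10 and Irf1 were lower in every HD rat than in every AL rat, which is 4 of 10 against 7.01% of tested genes, and none was higher in every HD rat, against 7.26%. In TPM, which sets another scale for each library, these were 5 of 10 against 8.45% (RT1-CE5, Psmb8, Irf1, B2m and Psmb9, without Psmb10), and 0 higher against 4.25%. In DESeq2 RT1-CE5 alone fell past the adjusted threshold, 1 of 10 against 0.77% of tested genes that were lower. The count of 3 genes at the unadjusted *P* was 1 without rat 71 or without rat 64, 2 without rat 88 and 5 without rat 67, and RT1-CE5 was among them each time.

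**Figure D1:**
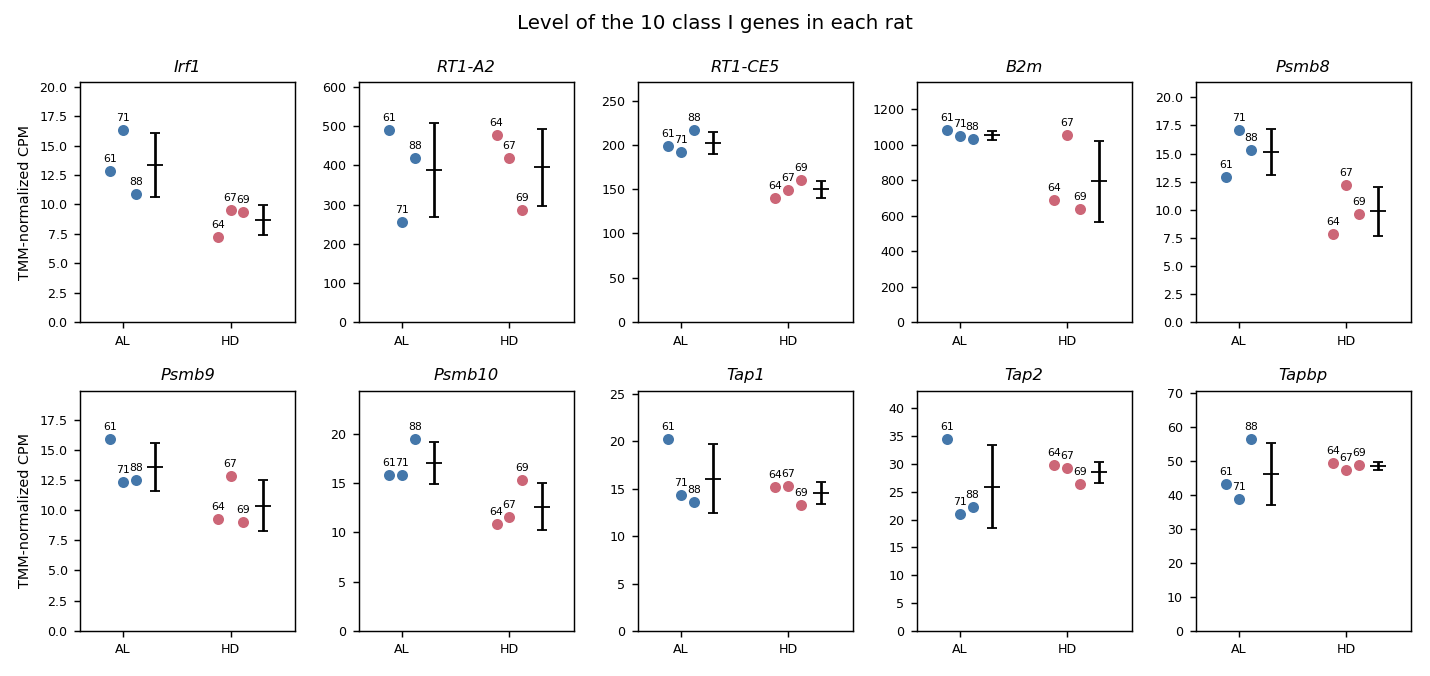
Level of each class I gene in each rat, in TMM-normalized CPM on an axis from 0. Points are rats, labelled by number, and bars give the mean ± SD of the 3 AL (blue) or 3 HD (red) rats. RT1-CE5 lies between 192 and 216 CPM in the AL rats and between 140.5 and 160.0 CPM in the HD rats. The points of B2m, Psmb9, RT1-A2, Tap1, Tap2 and Tapbp overlap between the groups.

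The heavy chain RT1-CE5 had the smallest *P* value of the 10 genes in edgeR. Its level was 198, 192 and 216 CPM in AL rats 61, 71 and 88 and 140.5, 149 and 160.0 CPM in HD rats 64, 67 and 69. All HD rats thus lay below all AL rats, and the values within each group were close together. The edgeR log2 fold change was -0.43 with a standard error (SE) of 0.11 (adjusted *P* = 0.379), a mean level lower by 25.9%, and the exact permutation test on log2 values gave *P* = 0.1, the lowest it allows. DESeq2 gave an adjusted *P* of 0.0299, and over all alternatives run the adjusted *P* ranged from there to 0.916. When single rats were left out, the edgeR log2 fold change ranged from -0.48 to -0.37.

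RT1-A2, a classical heavy chain, overlapped between the groups. Its level was 489.8, 256 and 419 CPM in the AL rats and 478, 420.0 and 287 CPM in the HD rats, in the order above. AL rat 71 was the lowest of all rats and AL rat 61 the highest. The edgeR log2 fold change was 0.03 with an SE of 0.27 (adjusted *P* = 0.988), and it was -0.20 without rat 71.

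Heavy chain genes of the RT1 complex are near-copies of each other and vary between rats, so reads can be divided among them in more than 1 way and the value of a single gene is uncertain. How reads were divided between genes cannot be read from the files, but RT1-CE5 has a pair of listed transcripts, between which the division is given. NM_001008843 received 80.2% of the estimated count in AL rat 61 and 85.5% and 83.4% in HD rats 64 and 67, but 27.1% and 9.16% in AL rats 71 and 88 and 28.3% in HD rat 69. The division of rats by transcript crossed the diet groups in part. The sum of both transcripts was lower in every HD rat than in every AL rat. Which alleles the rats carried, and whether they bear on the RT1-CE5 level, was not tested.

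**Figure D2:**
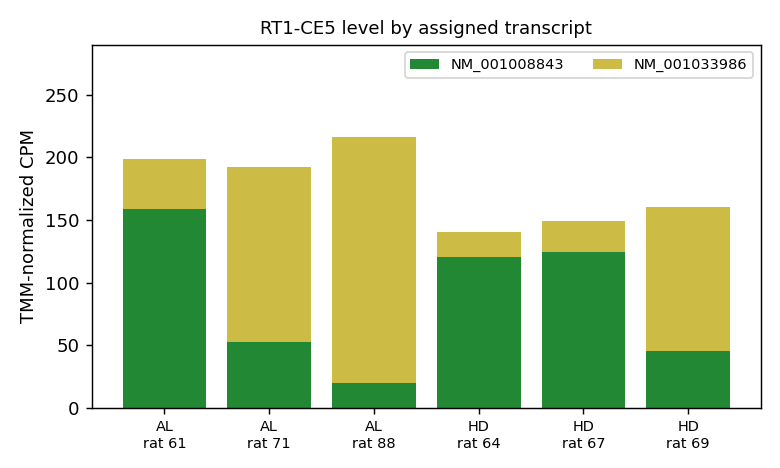
RT1-CE5 level in each rat in TMM-normalized CPM, stacked by the transcript to which the reads were assigned (NM_001008843 green, NM_001033986 yellow). Rats 61, 64 and 67 are mostly green (80.2% to 85.5% of the estimated count) and rats 71, 88 and 69 mostly yellow, while the full bars are lower in the 3 HD rats.

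The files hold 38 class I heavy chain genes of the RT1 complex, of which 30 were tested. Of the 28 other than RT1-A2 and RT1-CE5, 19 were lower and 9 higher in the HD group (median log2 fold change -0.40), where 48.7% of tested genes were lower. An unadjusted edgeR *P* under 0.05 was reached by 6 of the 28, all lower, against 5.94% of tested genes that were lower. In CPM, 5 of the 28 were lower in every HD rat than in every AL rat, against 7.01% of tested genes. The smallest *P* values belonged to RT1-N2 (log2 fold change -2.92, adjusted *P* = 0.398 in edgeR), RT1-N3 (-1.31, adjusted *P* = 0.405), RT1-CE15 (-0.86, adjusted *P* = 0.406) and RT1-T24-3 (-1.69, adjusted *P* = 0.419). Each of these was far less abundant in CPM than RT1-A2 and RT1-CE5. RT1-N3, for example, had 14.5, 37.4 and 22.3 CPM in the AL rats and 6.45, 9.24 and 13.9 CPM in the HD rats. RT1-N2 had 1.99, 23.3 and 13.4 CPM in the AL rats and 1.44, 0.949 and 2.62 CPM in the HD rats. HD rat 69 lay above AL rat 61 for RT1-N2, so the groups overlapped. The abundant RT1-A1 had 269, 80.4 and 146 CPM in the AL rats and 229.5, 209 and 125 CPM in the HD rats, and the HD rats lay within the AL range.

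The summed level of all heavy chains was 1675, 1536 and 1699 TPM in the AL rats and 1624, 1431 and 1243 TPM in the HD rats. HD rat 64 lay among the AL rats, and HD rats 67 and 69 lay below them. Tested as a single feature, a choice made after the data were seen, the sum had a log2 fold change of -0.14 with an SE of 0.18 (adjusted *P* = 0.855 in edgeR). RT1-A2 supplied 18.8% to 27.4% of the heavy chain TPM in the AL rats and 24.2% to 28.3% in the HD rats, and RT1-CE5 10.8% to 13.7% and 8.13% to 13.1%.

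B2m, the light chain shared by all class I molecules, was the most abundant gene of the group. It had 1081, 1049.7 and 1030.4 CPM in AL rats 61, 71 and 88 and 690.3, 1054 and 636 CPM in HD rats 64, 67 and 69. In CPM, HD rats 64 and 69 lay far below the narrow AL range, and HD rat 67 lay inside it. In TPM the HD rats (563, 846 and 566) all lay below the AL rats (859, 1001 and 918), and the exact permutation *P* was 0.1 in place of 0.3. The mean was 1054 ± 25.6 CPM in the AL group and 793 ± 227 CPM in the HD group (SD, *n* = 3), with an edgeR log2 fold change of -0.41 and an SE of 0.20 (adjusted *P* = 0.529). The difference depended on single HD rats: the log2 fold change was -0.67 without rat 67, -0.32 without rat 64 and -0.27 without rat 69.

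B2m and Ppia (cyclophilin A) also served as the reference genes for quantitative PCR in this study. Normalization there used the geometric mean of both, so the levels of both bear on that use. The ratio of B2m to Ppia, given below, is not that factor. Ppia had 1409, 991 and 1062 CPM in the AL rats and 1199, 1241 and 1078 CPM in the HD rats, a log2 fold change of 0.02 with an SE of 0.17 (adjusted *P* = 0.979 in edgeR). The TPM ratio of B2m to Ppia was 0.297, 0.410 and 0.376 in the AL rats and 0.223, 0.329 and 0.229 in the HD rats. The ratio was lower on average in the HD group (0.260 ± 0.0597 against 0.361 ± 0.0580), but HD rat 67 lay above AL rat 61. Among other common reference genes, Gapdh, Actb and Hprt1 had log2 fold changes of 0.23, 0.06 and 0.16, none with an unadjusted edgeR *P* under 0.05.

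The immunoproteasome subunits were all lower on average in the HD group. Psmb8, which replaces the chymotrypsin-like subunit Psmb5, had 12.9, 17.1 and 15.4 CPM in the AL rats and 7.81, 12.2 and 9.59 CPM in the HD rats. All HD rats lay below all AL rats, although HD rat 67 and AL rat 61 were close. The edgeR log2 fold change was -0.61 with an SE of 0.21 (adjusted *P* = 0.406), a mean level lower by 34.6%, and the exact permutation test gave *P* = 0.1.

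Psmb10, which replaces the trypsin-like subunit Psmb7, had 15.8, 15.9 and 19.5 CPM in the AL rats and 10.9, 11.6 and 15.3 CPM in the HD rats. The groups did not overlap in CPM, with HD rat 69 just under AL rats 61 and 71, but in TPM HD rat 69 (25.7) lay above AL rat 61 (23.6), and the exact permutation *P* was 0.2 in place of 0.1. The edgeR log2 fold change was -0.43 with an SE of 0.19 (adjusted *P* = 0.478). Psmb9, which replaces Psmb6, had 15.9, 12.4 and 12.5 CPM in the AL rats and 9.25, 12.8 and 9.05 CPM in the HD rats. HD rat 67 lay among the AL rats and the other HD rats lay below them, and the log2 fold change was -0.39 with an SE of 0.21 (adjusted *P* = 0.564 in edgeR). In TPM HD rat 67 (21.2) too lay below every AL rat (23.1 to 26.1), and the exact permutation *P* was 0.1 in place of 0.3.

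The constitutive subunits that these 3 replace had log2 fold changes near 0. Psmb5, Psmb6 and Psmb7 had edgeR log2 fold changes of 0.04 (SE 0.13), 0.01 (SE 0.16) and 0.14 (SE 0.17), with adjusted *P* values of 0.960, 0.989 and 0.836. The 11 other subunits of the 20S core, the Psma genes and the remaining Psmb genes, had log2 fold changes between -0.24 and 0.06, and none had an unadjusted *P* under 0.05. The 4 measured assembly chaperones of the core likewise had none.

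**Figure D3:**
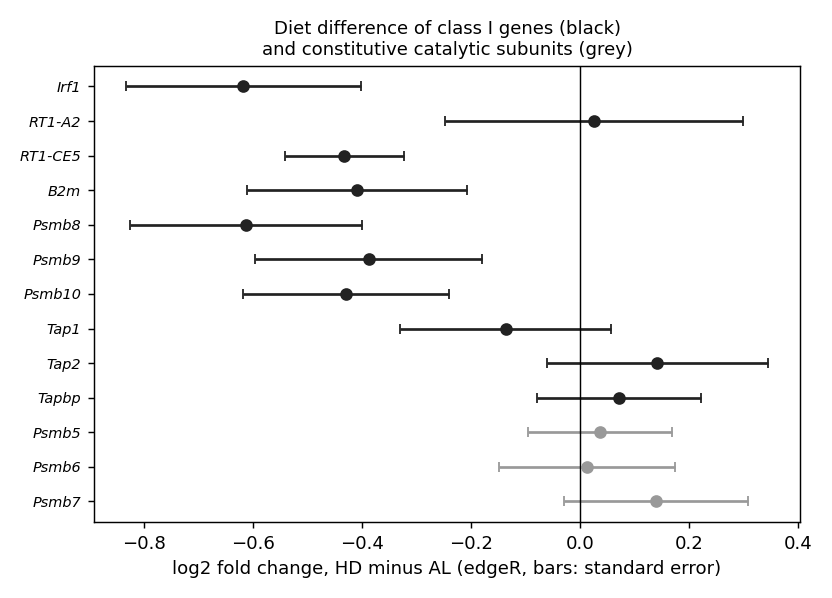
edgeR log2 fold change, HD minus AL, of the class I genes (black) and the constitutive catalytic subunits (grey), with bars of 1 standard error. Irf1 (-0.62), Psmb8 (-0.61), RT1-CE5, Psmb10, B2m and Psmb9 lie left of 0 by more than 1 standard error, and RT1-A2, Tap1, Tap2, Tapbp and the constitutive subunits lie within 1 standard error of 0.

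The ratio of each inducible subunit to its constitutive partner was followed within each rat, as inducible TPM in percent of constitutive TPM. Psmb8 came to 6.77%, 10.7% and 8.46% of Psmb5 in the AL rats and to 4.03%, 6.21% and 6.11% in the HD rats. Psmb9 came to 9.02%, 10.3% and 8.04% of Psmb6 in the AL rats and to 6.01%, 7.75% and 6.62% in the HD rats. For both pairs every HD rat lay below every AL rat. Psmb8 and Psmb9 alone were placed in the same way in TPM, as were 8.45% of tested genes. No such share was computed for ratios.

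Psmb10 came to 6.71%, 10.1% and 9.42% of Psmb7 in the AL rats and to 4.78%, 4.89% and 7.86% in the HD rats, where HD rat 69 overlapped with AL rat 61. The log2 differences of the 3 ratios were -0.67, -0.43 and -0.60, with two-sided exact permutation *P* values of 0.1, 0.1 and 0.2 (0.15, 0.15 and 0.2 after Benjamini-Hochberg adjustment over the 3 pairs). None reached 0.05, which 3 rats against 3 cannot do. Over the 6 catalytic genes the inducible share of TPM was 6.95%, 9.38% and 8.0% in the AL rats and 4.68%, 5.80% and 6.51% in the HD rats, or 8.11 ± 1.22% against 5.66 ± 0.923% (SD, *n* = 3). Constitutive transcripts thus made up the bulk of the catalytic subunit RNA in every rat.

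**Figure D4:**
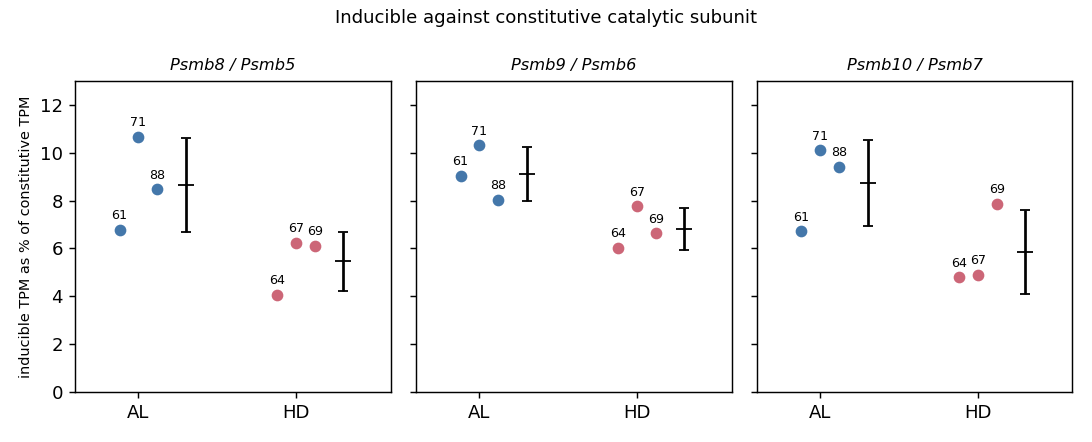
TPM of each inducible proteasome subunit in percent of the TPM of the constitutive subunit it replaces, on an axis from 0. Points are rats, labelled by number, with the mean ± SD of the 3 AL (blue) and 3 HD (red) rats. The means of Psmb8/Psmb5 are 8.64% and 5.45%, those of Psmb9/Psmb6 9.12% and 6.79% and those of Psmb10/Psmb7 8.74% and 5.84%.

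The peptide transporter and tapasin overlapped between the groups. Tap1 had 20.3, 14.4 and 13.6 CPM in the AL rats and 15.2, 15.3 and 13.3 CPM in the HD rats, and all HD values but that of rat 69 lay inside the AL range. Its edgeR log2 fold change was -0.14 with an SE of 0.19 (adjusted *P* = 0.866), and 0.06 without rat 61, the highest. The direction for Tap1 thus rested on that rat.

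Tap2, its partner in the transporter, had 34.5, 21.0 and 22.2 CPM in the AL rats and 29.9, 29.3 and 26.4 CPM in the HD rats. The HD rats lay between AL rat 61 and the other AL rats. The edgeR log2 fold change was 0.14 with an SE of 0.20 (adjusted *P* = 0.868), and it was 0.40 without rat 61 (unadjusted edgeR *P* under 0.05). The TPM ratio of Tap1 to Tap2 was 0.532, 0.617 and 0.555 in the AL rats and 0.459, 0.472 and 0.455 in the HD rats, lower in every HD rat. This ratio was not among the planned ones, and no share of such separation over all gene pairs was computed. Other unplanned ratios of class I genes, such as Psmb8 to Psmb9 and RT1-A2 to B2m, overlapped between the groups. Counts of Tap2 rest on 2 listed positions, which limits the ratio of Tap1 to Tap2.

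Tapbp had 43.2, 38.8 and 56.4 CPM in the AL rats and 49.2, 47.3 and 48.9 CPM in the HD rats. All HD rats lay inside the AL range, and the log2 fold change was 0.07 with an SE of 0.15 (adjusted *P* = 0.918 in edgeR). The 4 other genes of peptide loading that were listed, the chaperones Calr and Canx, the disulphide isomerase Pdia3 and the editor Tapbpl, had log2 fold changes between -0.04 and 0.06. Of 7 peptidases that trim or destroy class I peptides, among them Erap1 with -0.18 and Blmh with 0.21, 3 were lower and 4 higher, and none had an unadjusted *P* under 0.05. Psme1 and Psme2, the interferon-inducible proteasome activator, had log2 fold changes of -0.19 (adjusted *P* = 0.663 in edgeR) and -0.14 (adjusted *P* = 0.778), with overlapping groups.

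Irf1, a transcription factor of the interferon-gamma response that acts on class I promoters, was among the genes with the widest difference. It had 12.9, 16.3 and 10.9 CPM in the AL rats and 7.21, 9.49 and 9.34 CPM in the HD rats. All HD rats lay below all AL rats, with AL rat 88 nearest to them. The edgeR log2 fold change was -0.62 with an SE of 0.22 (adjusted *P* = 0.406), a mean level lower by 34.8%, and the exact permutation test gave *P* = 0.1. It ranged from -0.74 to -0.45 when single rats were left out.

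The 8 measured factors that bind class I promoters (Rfx5, Rfxap, Rfxank, Nfya, Nfyb, Nfyc, Creb1 and Rela) had log2 fold changes between -0.30 and -0.01, none with an unadjusted edgeR *P* under 0.05. Of 13 tested genes of interferon signalling 10 had a lower mean in the HD rats, where 48.7% of tested genes were lower. The median log2 fold change of the list was -0.17. An unadjusted edgeR *P* under 0.05 was reached by 3 of the 13, all lower, against 5.94% of tested genes that were lower. Those with an unadjusted *P* under 0.05 were Ifngr1, a receptor chain for interferon-gamma (-0.49, adjusted *P* = 0.409 in edgeR), and the factors Irf7 (-1.20, adjusted *P* = 0.419) and Irf8 (-1.44, adjusted *P* = 0.454). Irf7 had 32.6, 33.2 and 97.0 CPM in AL rats 61, 71 and 88 and 18.6, 29.9 and 22.3 CPM in HD rats 64, 67 and 69. Irf8 was scarce, between 0.594 and 4.93 CPM, and the groups overlapped for Irf8 and Ifngr1.

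Interferon-induced genes outside antigen presentation were listed for comparison. All 12 of them had a lower mean level in the HD rats (median log2 fold change -0.84), where 48.7% of tested genes were lower. An unadjusted edgeR *P* under 0.05 was reached by 7 of the 12, against 5.94% of tested genes that were lower. The smallest *P* values were those of the chemokine Cxcl10 (-0.81, adjusted *P* = 0.368 in edgeR), the GTPases Gbp2 (-1.13) and Mx1 (-1.45), and Ifit3 (-0.99), the last 3 each with an adjusted *P* of 0.398. Their summed level ranged from 159 to 249.8 CPM in the AL rats and from 80.4 to 125 CPM in the HD rats. AL rat 88 had the highest sum, and was also the highest AL rat for RT1-CE5, Psmb10 and Tapbp but the lowest for Irf1, Tap1 and B2m.

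All tested markers of immune cells had a lower mean level in the HD rats, where 48.7% of tested genes were lower. Ptprc, Cd53, Coro1a and Laptm5, which mark leukocytes, summed to 33.4, 86.3 and 52.3 CPM in the AL rats and to 10.8, 17.9 and 32.7 CPM in the HD rats. The sum of HD rat 69 lay just under that of AL rat 61. In CPM, 3 of the 4 markers were lower in every HD rat than in every AL rat, against 7.01% of tested genes, and Laptm5 overlapped. All 4 were lower with an unadjusted edgeR *P* under 0.05, and their median log2 fold change was -1.53. Of tested genes 5.94% were lower at that *P*, the share to set beside this list and those that follow. Macrophage and dendritic markers (8 tested, 8 lower, 5 with an unadjusted *P* under 0.05, median -1.39) summed to 54.9 to 143 CPM in the AL rats and 27.9 to 61.4 CPM in the HD rats. T and NK cell markers (5 tested, 5 lower, 4 with an unadjusted *P* under 0.05, median -2.03) summed to 6.04 to 27.9 CPM and 1.95 to 5.37 CPM, with Cd3e at 0 in rats 64 and 67 and Klrb1 at 0 in all rats. No B cell marker passed the filter on low counts. In whole kidney RNA, fewer cells of a type and less RNA per cell cannot be told apart, and the part of immune cells in the class I differences was not tested.

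**Figure D5:**
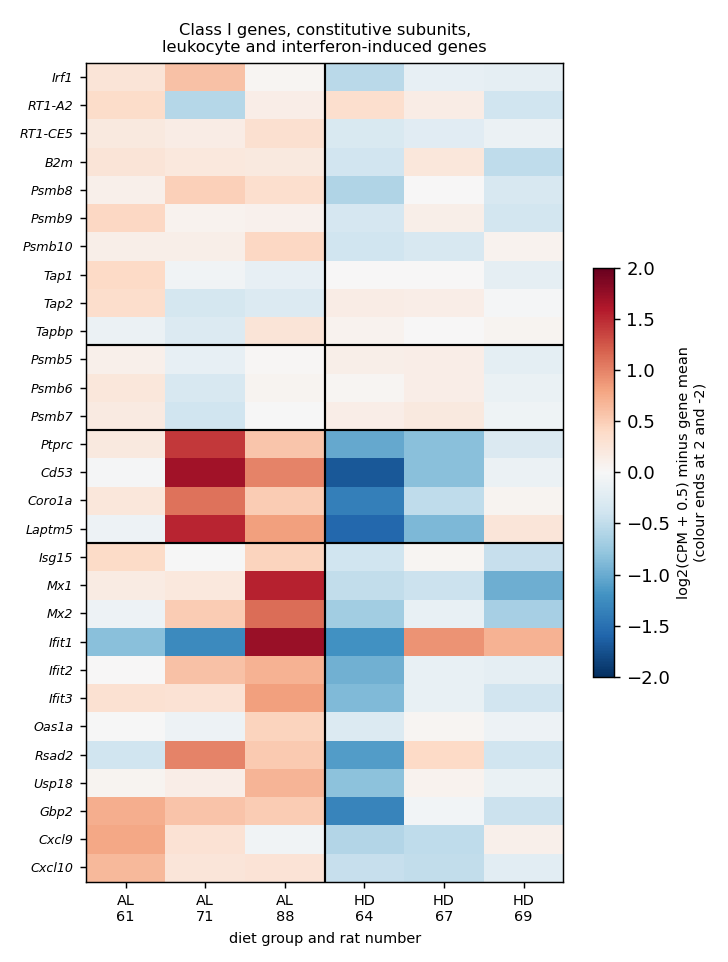
Heat map of log2(CPM + 0.5) relative to the gene's own 6-rat mean, red above and blue below the mean. Blocks from top to bottom are the class I genes, the constitutive catalytic subunits, the leukocyte markers and the interferon-induced genes, and columns are the 3 AL and 3 HD rats. The leukocyte markers are red in AL rat 71 and blue in HD rat 64, and Ifit1 and Mx1 are deep red in AL rat 88. The class I genes and the constitutive subunits both stay pale in every rat.

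Receptors that read class I were scarce. Cd8a, the co-receptor of cytotoxic T cells, had 1.91, 2.0 and 1.65 CPM in the AL rats and 0.764, 0.550 and 0.703 CPM in the HD rats, with a log2 fold change of -1.46 (adjusted *P* = 0.390 in edgeR). Klrk1, an activating NK cell receptor for class I-like ligands, had a log2 fold change of -1.89 (adjusted *P* = 0.398 in edgeR). Of 4 class I-like genes (Cd1d1, Fcgrt, Hfe and Azgp1), which pair with B2m except for Azgp1, 1 was lower and 3 were higher, none with an unadjusted *P* under 0.05. The MHC class II genes, which present peptides from outside the cell, were split, with 6 of 8 lower against 48.7% of tested genes. Their median log2 fold change was -0.23, and RT1-Da (-0.98, adjusted *P* = 0.409 in edgeR) was the one with an unadjusted *P* under 0.05.

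Markers of other kidney cells differed in part. Of the 7 tubule markers, 2 were higher and 1 lower in every HD rat, against 7.26% and 7.01% of tested genes. Slc12a3, the cotransporter of the distal convoluted tubule, had 27.6, 18.1 and 27.2 CPM in the AL rats and 287, 51.5 and 216 CPM in the HD rats. The proximal Slc34a1 and the loop of Henle transporter Slc12a1 had log2 fold changes of 0.70 and -0.86, and Lrp2, Cubn, Umod and Aqp2 overlapped between the groups. Nphs1, the podocyte gene for nephrin, had 9.77, 13.9 and 10.8 CPM in the AL rats and 42.0, 59.1 and 74.8 CPM in the HD rats, higher in every HD rat than in any AL rat. The podocyte genes Podxl and Synpo overlapped between the groups, with log2 fold changes of 0.33 and 0.70. Wt1, a podocyte transcription factor, lay between 0.926 and 1.89 CPM in the AL rats and between 5.86 and 10.8 CPM in the HD rats. Endothelial markers overlapped, with 241 to 275 CPM in the AL rats and 157 to 285 CPM in the HD rats. Their part in the class I differences was not tested.

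Across the 6 rats the 10 class I genes had a median profile, on log2(CPM + 0.5) centred on each gene's mean, of 0.26, 0.09 and 0.16 in AL rats 61, 71 and 88 and of -0.32, 0.01 and -0.19 in HD rats 64, 67 and 69. HD rat 67 thus lay at the mean of all rats, and HD rat 64 was the lowest. The tested genes nearest to this profile, RT1 genes left aside, were Pygo2, Crebbp, Zfp386, Zcchc4 and Ewsr1, with mean absolute differences from it of 0.0293, 0.0332, 0.0343, 0.0415 and 0.0424 over the 6 rats. Their likeness is a description over 6 rats drawn from 11553 genes.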

How the data were processed

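Kidney poly(A) RNA of 3 AL and 3 HD rats was sequenced single-end, and the authors assigned reads to transcripts with RSEM 1.1.15 at default parameters, using gene definitions for genome build rn5 (version and build from the submitters' processing notes). They deposited, per transcript and rat, an estimated count (expected count), not normalized, a posterior mean count and TPM values scaled for transcript length and library. The deposited FPKM values were not used here. Estimated counts were summed per gene and rounded. Genes that reached a count of 30 in 1 rat or more were tested with edgeR's quasi-likelihood test (edgeR 4.0.16, R 4.3.3, TMM normalization, diet as the only factor), with Benjamini-Hochberg adjustment over all 11553 genes. The SE was the log2 fold change divided by the root of the F statistic. The common biological coefficient of variation was 0.242. Exact permutation tests over the 20 divisions of the rats used log2(CPM + 0.5) or the log2 TPM ratio. DESeq2 1.42.0, the study's own tool, was an alternative, as were RLE normalization, library size alone, a robust fit, other count filters, posterior mean counts, other pseudocounts, TPM levels, RT1 genes summed (added after the data were seen) and each rat left out. The code was checked on simulated counts. The class I genes and the other gene lists were chosen with earlier results of these data known. Named beside the 10 genes were Psmb5, Psmb6, Psmb7 and Ppia, at most 4 genes per list with the smallest unadjusted *P* under 0.05, and the 5 genes nearest in profile. Further genes were named after their values were seen, among them Psme1, Psme2, Erap1, Blmh, RT1-A1, Gapdh, Actb and Hprt1. Some genes of the lists are not reported here. Nlrc5 and Nfkb1 were not analysed here. Promoters came from RefSeq (GRCr8), and no genome was used. Python 3.11.15 with scipy 1.17.1 and matplotlib 3.10.9 made tables and plots.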

Additional observations from a re-analysis of the deposited data

How the results depend on the processing

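No class I gene passed an adjusted *P* of 0.05 in any edgeR setting. In DESeq2 1 did (RT1-CE5), and DESeq2 called 182 genes in all against 0 in edgeR, where 2 were called without the filter on low counts and 0 to 4 with each rat left out. Genes with an unadjusted *P* under 0.05 numbered 606 to 1744 with each rat left out. Class I genes lower at that *P* numbered 5 under library size alone and 1 to 5 with each rat left out. Genes near 0 turned direction: under library size alone Tapbp was -0.0082 and RT1-A2 -0.048, Tap1 was 0.063 without AL replicate 1 (rat 61), Tapbp was -0.041 and RT1-A2 -0.20 without AL replicate 2 (rat 71), RT1-A2 was -0.13 without HD replicate 1 (rat 64) and -0.021 without HD replicate 2 (rat 67), and the RT1-A2 difference in log2 level was -0.026 in TPM. When single rats were left out, Tap1 ranged from -0.24 to 0.063, Tapbp from -0.041 to 0.25 and RT1-A2 from -0.20 to 0.23. Of the 10 genes, 6 to 9 were lower with a rat left out, and their median ran from -0.43 to -0.28. The log2 ratio differences ranged from -0.83 to -0.46 for Psmb8/Psmb5, from -0.52 to -0.33 for Psmb9/Psmb6 and from -0.83 to -0.47 for Psmb10/Psmb7. The cause of these shifts was not tested. Depth limits Irf1 most, with a count of 85 in rat 64. No paired analysis was possible because the labels give rat numbers that no pair of groups shares.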
